A study of Mus musculus with 24 samples.

Results

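Mitotic kinases phosphorylate the proteins that build the spindle, attach chromosomes to it and divide the cell, and the chromosomal passenger complex carries one of them, Aurora B, along the chromosomes. The genes described here are the 6 kinase genes Aurka, Aurkb, Plk1, Plk4, Nek2 and Melk, the gene of the Aurora A activator Tpx2, and Incenp, Birc5 and Cdca8, whose products form the passenger complex with Aurora B. They were taken by symbol, without regard to case, from the count table of each cell line. All 10 were found in the 3 tables, which have 24035 symbols in common, and all 10 passed the filter on low counts in each line.

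RNA was measured in bulk in 24 libraries of cells sorted from tumours of 3 mouse mammary carcinoma lines, 4T07, D2A1 and EMT6, to ask how quiescent cancer cells differ from proliferating cells of the same tumour. Every line had been transduced with mCherry, a red fluorescent protein, and with mVenus-p27K, a yellow fluorescent protein joined to a p27 variant that marks resting cells, p27 being an inhibitor of the cell cycle, so the libraries of both gates carry both transgenes. Each Balb/cJ female was given 250000 cells in the mammary fat pad, with no further treatment named, and tumours were taken on day 14. The groups are 4T07 p27K high, 4T07 p27K negative, D2A1 p27K high, D2A1 p27K negative, EMT6 p27K high and EMT6 p27K negative, with 4 libraries in each group and both gates sorted from the same 4 tumours. For the age of the mice and the promoter of the reporter, the sources used here give nothing. D2A1 was sequenced in run 1, EMT6 in run 2 and 4T07 in run 3, so line and run cannot be told apart.

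Library totals were 27887221 to 45460880 counts in 4T07, 13769682 to 20142013 in EMT6 and 6727594 to 20174767 in the high gate of D2A1. The negative gate of D2A1 held 1335433, 2110563 and 1802042 counts in tumours 1, 2 and 3 and 15641189 in tumour 4. The gates were checked at the proliferation marker Mki67, whose level in the high gate was 1.09%, 1.65% and 2.53% of that in the negative gate in 4T07, D2A1 and EMT6. Cdkn1b, the gene of p27, was at 186%, 138% and 146%, and reads of the reporter may count towards it. The summed level of 8 epithelial markers was 434 to 687 CPM (counts scaled to a fixed library total) in 4T07, 610 to 1058 in EMT6 and 62.5 to 661 in D2A1, where 2 of the 8 passed the filter (7 in 4T07 and 5 in EMT6), and Esrp1 had 0 counts in 4T07. Macrophage markers moved with the gate in 4T07, where 12 of 12 fell and their summed level was 547 to 1195 CPM in the negative and 160 to 176 CPM in the high gate. Also in 4T07, 4 of 4 pan-leukocyte, 3 of 4 tested endothelial, 3 of 5 T and NK cell and 3 of 6 neutrophil markers fell. Of 9 tested mesenchymal markers 3 rose and 1 fell there. Of the tested epithelial markers 1 rose and 2 fell in 4T07, and 1 rose and 1 fell in EMT6. In D2A1 both tested endothelial markers (Pecam1 -2.37 and Cdh5 -2.80 on the log2 scale) fell. So did the keratin gene Krt8 (-2.46), while Krt18, the other epithelial marker tested there, was not called (0.32). Of 9 tested mesenchymal markers there, Col1a1, Col1a2, Col3a1 and Thy1 fell (-1.38, -3.88, -1.74 and -5.00). Pdgfra and Pdgfrb, of the same list, rose (1.07 and 1.14). The macrophage marker Cd14 (1.12, 1 of 8 tested) and the neutrophil marker S100a8 (1.53, 1 of 2 tested) also rose in D2A1. Its summed macrophage level was 72.5 to 130 CPM in the negative and 140 to 180 CPM in the high gate. In EMT6 8 of 8 tested mesenchymal markers and 3 of 6 macrophage markers rose, while the macrophage marker Mrc1 fell (-1.15). The summed macrophage level there was at most 45.6 CPM in the negative gate and 45.0 to 58.4 CPM in the high gate. The part of these markers in the changes below was not tested.

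Mitotic kinase genes are known to be transcribed late in the cell cycle, and their proteins are destroyed as mitosis ends. Aurora A and Polo-like kinase 1 act at centrosomes and the spindle, Polo-like kinase 4 starts the duplication of centrioles, and Aurora B corrects faulty attachments of chromosomes. Several of these kinases are drug targets in cancer because cycling cells depend on them.

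All 10 genes were far lower in p27K high than in p27K negative cells, in every line and every tumour. The log2 changes ran from -6.54 to -3.84 in 4T07, from -5.55 to -3.04 in D2A1 and from -5.56 to -3.04 in EMT6. All 10 passed the test in each line (edgeR quasi-likelihood test with the tumour as a block, Benjamini-Hochberg adjusted p under 0.05), where 23.6% of all tested genes in 4T07, 14.7% in D2A1 and 25.1% in EMT6 were called lower. All 10 also fell by at least 8-fold, as did 2.15%, 1.54% and 1.2% of all tested genes in the same order. A fall of at least 32-fold was seen for 8 of the 10 in 4T07, 4 in D2A1 and 4 in EMT6, against 0.77%, 0.366% and 0.3% of all tested genes. The median change of the 10 was -5.71, -4.72 and -4.78, beside medians of 0.00, 0.02 and 0.02 over the 12849, 12845 and 13354 genes tested. In bulk RNA of sorted cells, fewer cells with a transcript and less of it per cell cannot be told apart.

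**Figure D1:**
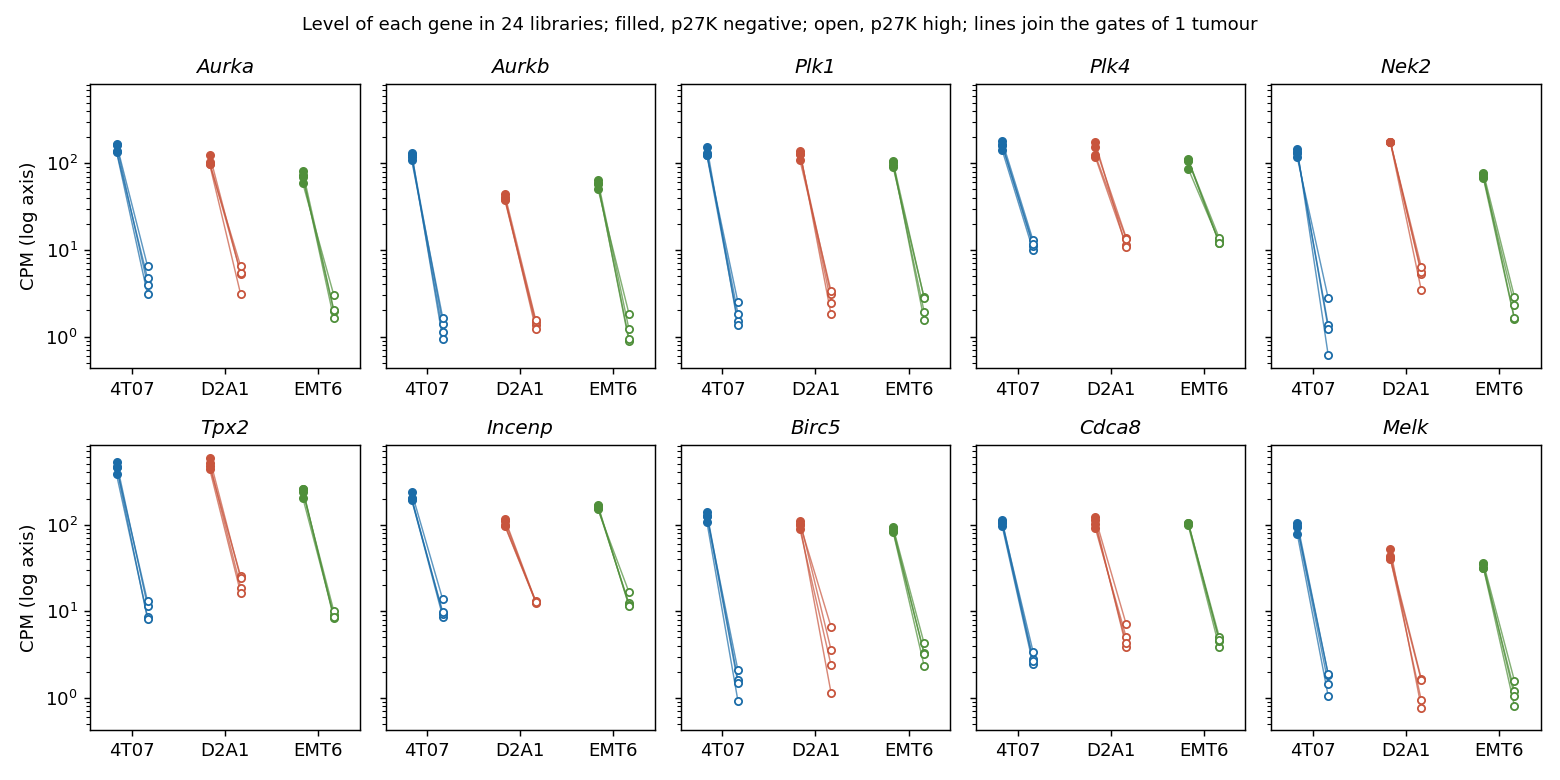
Level of the 10 genes in each of the 24 libraries (vertical axis, CPM on a log axis; horizontal axis, cell line; filled points, p27K negative; open points, p27K high; a line joins the gates of 1 tumour). In every panel and line the 4 open points lie below the 4 filled points, and the high gate levels of Plk4 and Incenp stay near 10 CPM while those of Aurkb, Plk1 and Melk lie between 0.773 and 3.37 CPM.

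No library of the high gate reached the level of any negative library of its line for any of the 10 genes. Such a separation was found for 21% of all tested genes in 4T07, 15.6% in D2A1 and 19.3% in EMT6. The smallest count behind a value was 5, for Melk in the high gate of D2A1 tumour 3.

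Aurka (chr2:172356190-172370535, minus strand, GRCm38, protein coding) encodes Aurora A, the kinase of centrosome maturation and spindle poles. In 4T07 tumours 1 to 4 its level was 136, 167, 162 and 137 CPM in the negative gate and 3.06, 6.48, 3.96 and 4.69 CPM in the high gate. D2A1 tumours 1 to 4 had 125, 103, 98.0 and 97.6 CPM against 5.32, 5.45, 6.49 and 3.08 CPM. The EMT6 tumours numbered 0, 1, 2 and 4 in the count table had 59.1, 73.3, 69.4 and 80.6 CPM against 3.03, 1.62, 2.00 and 2.04 CPM. In each line the lowest negative library thus stood far above the highest high gate library, and tumours differed more, in proportion, in the high gate than in the negative gate. The change of Aurka was -5.09 ± 0.16 in 4T07 (log2, standard error, n = 4 tumours; adjusted p = 7.67e-07), -4.45 ± 0.18 in D2A1 (adjusted p = 5.19e-10) and -5.02 ± 0.15 in EMT6 (adjusted p = 6.71e-09).

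Tpx2 (chr2:152847964-152895321, plus strand, protein coding) encodes the spindle protein that binds and switches on Aurora A. Its mean level in the negative gate was 456 ± 59.2 CPM in 4T07, 504 ± 63.2 in D2A1 and 241 ± 25.0 in EMT6 (SD, n = 4). In the high gate it was 10.3 ± 2.33, 21.1 ± 4.31 and 9.02 ± 0.78 CPM. The log2 change of Tpx2 was -5.48 ± 0.14, -4.59 ± 0.14 and -4.73 ± 0.08 in 4T07, D2A1 and EMT6. Activator and kinase were then compared within tumours by an exact sign-flip permutation test (two-sided, 12 tumours, Benjamini-Hochberg over 5 pairs of genes). The log2 change of Aurka minus that of Tpx2 was 0.12 ± 0.44 (SD, n = 12), negative in 4 of 12 tumours, with an adjusted p of 0.360 in the exact test. That mean was 0.40 in 4T07, 0.21 in D2A1 and -0.26 in EMT6, so its sign was not the same in the 3 lines, and without EMT6 the mean of 0.30 passed the exact test (adjusted p = 0.0488).

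Aurkb (chr11:69045647-69051664, plus strand, protein coding) encodes Aurora B, the catalytic subunit of the chromosomal passenger complex. Its negative gate levels were 118, 131, 124 and 108 CPM in 4T07 tumours 1 to 4, and the high gate levels were 1.14, 0.932, 1.41 and 1.65 CPM. D2A1 had 37.9, 38.8, 43.7 and 41.1 CPM in the negative and 1.35, 1.47, 1.55 and 1.21 CPM in the high gate. EMT6 had 51.1, 59.1, 57.3 and 63.4 CPM against 1.85, 0.884, 0.948 and 1.22 CPM. The high gate was alike in the 3 lines, with overlapping values between 0.884 and 1.85 CPM, whereas the negative gate was highest in 4T07 and lowest in D2A1 with no overlap between lines. The log2 change of Aurkb was -6.54 ± 0.18, -4.86 ± 0.19 and -5.56 ± 0.15 for 4T07, D2A1 and EMT6 (adjusted p = 4.49e-07, 5.85e-10 and 4.96e-09).

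Incenp (chr19:9872296-9899551, minus strand, protein coding) encodes the scaffold that holds the complex together and activates Aurora B. Its levels in 4T07 were 197, 236, 203 and 192 CPM in the negative and 8.68, 13.7, 9.36 and 9.83 CPM in the high gate. In D2A1 they were 117, 110, 99.1 and 97.4 CPM against 12.9, 12.6, 13.0 and 12.7 CPM. In EMT6 they were 150, 156, 163 and 168 CPM against 16.7, 12.4, 11.8 and 11.7 CPM. Incenp thus kept more of its transcript in the high gate than its partners, and its change was the smallest of the complex in each line, at -4.33 ± 0.10, -3.04 ± 0.13 and -3.61 ± 0.10 in 4T07, D2A1 and EMT6. The adjusted p was 3.10e-07, 9.46e-10 and 6.11e-09.

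Birc5 (chr11:117849251-117855743, plus strand, protein coding) encodes survivin, which docks the complex at centromeres and belongs to the inhibitor of apoptosis family. Negative gate levels were 108, 138, 127 and 126 CPM in 4T07, 88.4, 111, 102 and 100.1 CPM in D2A1, and 93.3, 83.2, 83.7 and 90.8 CPM in EMT6. High gate levels were 0.928, 1.62, 1.48 and 2.09 CPM in 4T07, 2.41, 3.62, 6.65 and 1.16 CPM in D2A1, and 4.28, 2.36, 3.34 and 3.20 CPM in EMT6. The high gate of D2A1 spread most, from tumour 4 up to tumour 3, while its negative gate spread little. Birc5 had log2 changes of -6.38 ± 0.16, -5.09 ± 0.28 and -4.73 ± 0.10 (adjusted p = 4.09e-07, 1.38e-08 and 8.99e-10).

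Cdca8 (chr4:124918465-124939311, minus strand, protein coding) encodes borealin, which joins survivin to the scaffold. Its mean negative gate level hardly differed between the lines, at 105 ± 6.05 CPM in 4T07, 107 ± 12.4 in D2A1 and 103 ± 3.21 in EMT6 (SD, n = 4). High gate means were 2.84 ± 0.42, 5.09 ± 1.43 and 4.54 ± 0.52 CPM. The log2 changes of Cdca8 were -5.21 ± 0.11, -4.44 ± 0.16 and -4.50 ± 0.07.

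Within tumours the subunits did not fall alike. The log2 change of Aurkb was lower than that of Incenp in 12 of 12 tumours, by a mean of -1.90 ± 0.41 (SD, n = 12; exact sign-flip p = 0.000488, the smallest that 12 tumours allow, and 0.00122 adjusted over 5 pairs). It was lower than that of Cdca8 in 11 of 12 tumours, by -0.88 ± 0.57 (exact test, adjusted p = 0.00163). The exception was D2A1 tumour 1, where the difference was 0.15, and the line means ran from -1.32 in 4T07 to -0.30 in D2A1. Aurkb and Birc5 differed by -0.20 ± 0.70, with an adjusted p of 0.360 in the exact test. The mean of that pair was -0.17 in 4T07, 0.34 in D2A1 and -0.76 in EMT6, and without D2A1 it was -0.47 with an adjusted p of 0.0488 in the exact test. With 4 tumours a line alone cannot go below an exact p of 1 in 8, so no test was made within a line.

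Levels of the 4 subunits were set beside each other per length, as CPM per kilobase of merged exons, and each subunit was expressed as a share of their sum. Incenp made up 32.8 ± 0.96% of the sum in the negative gate of 4T07 (SD, n = 4) and 62.3 ± 6.07% in the high gate. In D2A1 its share was 27.7 ± 2.51% against 55.8 ± 9.31%, and in EMT6 36.1 ± 0.90% against 57.4 ± 3.50%. The scaffold gene was therefore the largest of the 4 in every high gate library, with a lowest share of 43.8% in D2A1. It was also the largest in every negative library of 4T07 and EMT6 and in that of D2A1 tumour 1. In the negative libraries of D2A1 tumours 2, 3 and 4 Birc5 was larger. The Aurkb share went from 28.0 ± 1.26% to 11.6 ± 3.13% in 4T07, from 15.5 ± 0.90% to 8.82 ± 0.78% in D2A1 and from 19.2 ± 1.31% to 7.70 ± 1.38% in EMT6. The Birc5 share was 25.2%, 33.4% and 25.3% in the negative and 11.6%, 17.5% and 18.2% in the high gate. Cdca8 moved least, from 14.0% to 14.5% in 4T07, from 23.4% to 17.9% in D2A1 and from 19.5% to 16.7% in EMT6. Shares rest on the annotated exon length, which may differ from the transcripts present, and since they sum to a whole they carry no test of their own.

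**Figure D2:**
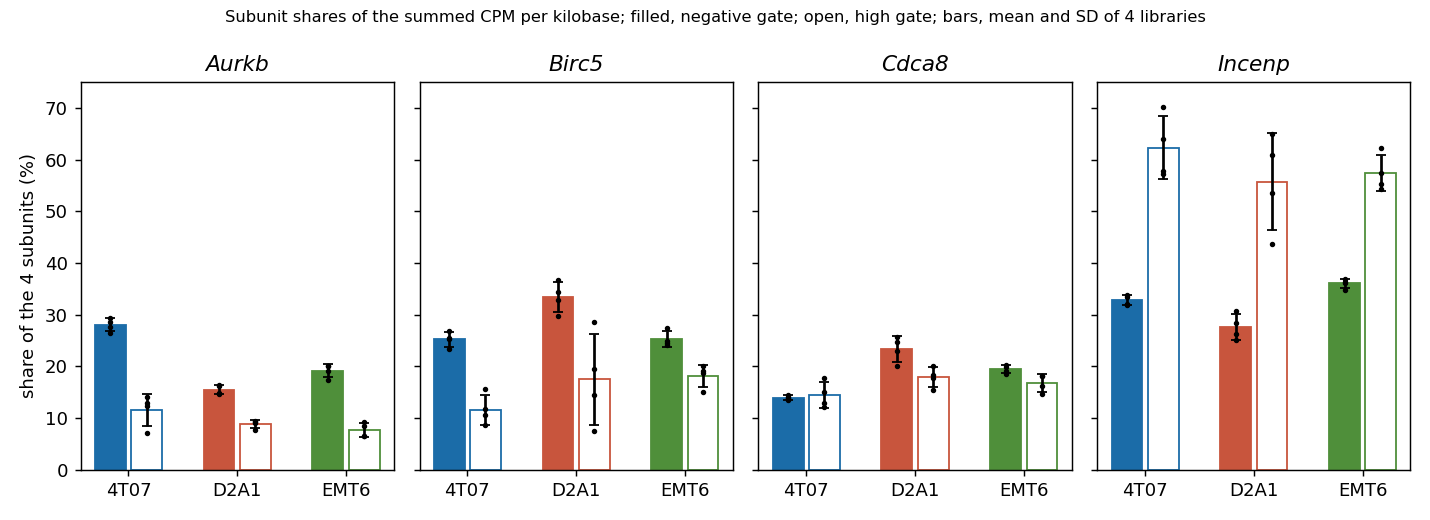
Share of each passenger complex gene in the summed CPM per kilobase of the 4 genes (vertical axis, percent; horizontal axis, cell line; filled bars, p27K negative; open bars, p27K high; bars and whiskers, mean and SD of 4 libraries; points, libraries). The Incenp bars rise from 27.7% to 36.1% in the negative gate to 55.8% to 62.3% in the high gate, and the Aurkb bars drop in each line.

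Plk1 (chr7:122159439-122169873, plus strand, protein coding) encodes Polo-like kinase 1, which acts from mitotic entry to cytokinesis. Its negative gate levels were 124, 156, 131 and 125 CPM in 4T07, 127, 108, 130 and 138 CPM in D2A1, and 90.7, 105, 96.4 and 104 CPM in EMT6. The high gate had 1.51, 1.38, 1.84 and 2.50 CPM in 4T07, 3.06, 3.37, 2.47 and 1.82 CPM in D2A1, and 2.83, 1.55, 1.95 and 2.80 CPM in EMT6. No high gate library exceeded 3.37 CPM, and no negative library was under 90.7 CPM. Plk1 changed by -6.21 ± 0.19, -5.55 ± 0.20 and -5.43 ± 0.12 (adjusted p = 6.86e-07, 2.09e-10 and 1.71e-09), and its average over the lines of -5.70 ± 0.12 was the lowest of the 10 genes.

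Plk4 (chr3:40800019-40816883, plus strand, protein coding) encodes the kinase that sets centriole number. Negative gate levels were 143, 182, 164 and 163 CPM in 4T07, 156, 119, 176 and 126 CPM in D2A1, and 86.4, 107, 108 and 111 CPM in EMT6. High gate levels were 9.89, 12.9, 11.2 and 11.8 CPM in 4T07, 13.9, 11.3, 10.7 and 13.4 CPM in D2A1, and 12.5, 12.0, 13.7 and 11.9 CPM in EMT6. The 12 high gate libraries thus lay within 9.89 to 13.9 CPM, and the lines overlapped there. Plk4 changed by -3.84 ± 0.08, -3.51 ± 0.15 and -3.04 ± 0.08 (adjusted p = 3.10e-07, 1.04e-09 and 3.19e-09). The change of Plk1 was lower than that of Plk4 in 12 of 12 tumours, by a mean of -2.24 ± 0.50 on the log2 scale (SD, n = 12; exact sign-flip p = 0.000488, adjusted 0.00122). The line means of this difference were -2.37 in 4T07, -1.96 in D2A1 and -2.38 in EMT6.

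Nek2 (chr1:191821444-191833050, plus strand, protein coding) encodes the kinase that releases the link between centrosomes before mitosis. In the negative gate it had 132, 145, 135 and 117 CPM in 4T07, 177, 177, 177 and 176 CPM in D2A1, and 67.0, 77.4, 68.6 and 74.6 CPM in EMT6. In the high gate it had 1.35, 0.608, 1.24 and 2.76 CPM in 4T07, 5.32, 5.58, 6.34 and 3.41 CPM in D2A1, and 1.58, 2.87, 2.30 and 1.63 CPM in EMT6. D2A1 was thus the highest of the lines in both gates. Nek2 changed by -6.49 ± 0.33, -5.15 ± 0.17 and -5.10 ± 0.11 (adjusted p = 7.35e-06, 1.12e-10 and 1.67e-09). The lowest value, from 15 counts, belongs to the high gate of 4T07 tumour 2, whose library detected 13500 genes where the other high gate libraries of 4T07 detected 15094 to 15370, and without that tumour and each of the others in turn the 4T07 change ranged from -6.98 to -6.18.

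Melk (chr4:44300876-44364675, plus strand, protein coding) encodes maternal embryonic leucine zipper kinase, a relative of the energy sensor AMPK that is abundant in cycling cells. Its mean negative gate level was 93.5 ± 11.1 CPM in 4T07, 44.3 ± 5.77 in D2A1 and 33.6 ± 2.07 in EMT6 (SD, n = 4). High gate means were 1.56 ± 0.39, 1.24 ± 0.45 and 1.16 ± 0.32 CPM. The negative gate was thus highest in 4T07, and the high gates of the lines lay within their spread of each other. The log2 changes of Melk were -5.93 ± 0.13, -5.08 ± 0.23 and -4.84 ± 0.13. All levels set beside each other across lines come from tables that were scaled separately.

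**Figure D3:**
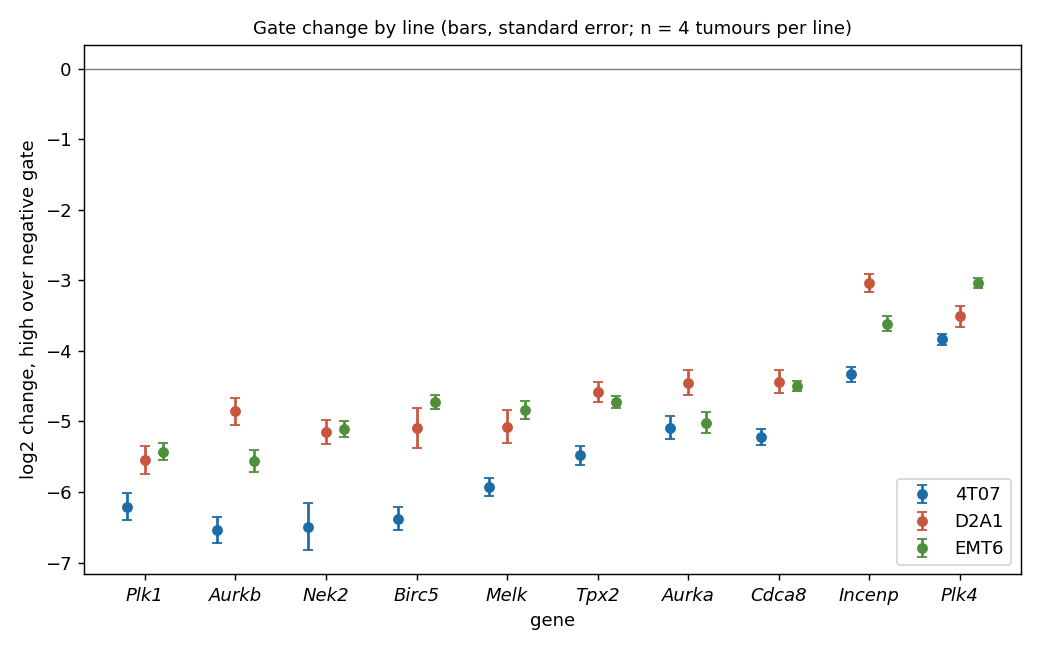
Gate change of each gene in each line (vertical axis, log2 of p27K high over p27K negative; horizontal axis, gene, in order of the mean change; points, estimate of the edgeR fit; bars, standard error, n = 4 tumours). All points lie below -3, the 4T07 point is the lowest for each gene, and Incenp and Plk4 lie nearest to 0.

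Genes that act late in the cell cycle often carry 2 short promoter elements, the cell cycle genes homology region (CHR; searched as TTTGAA or TTTAAA) and the CCAAT box, and the promoters are shown because these genes moved together. RefSeq windows of 250 bases before to 50 after the RefSeq start (GRCm38.p6) were at hand for 7 of the 10 genes, all but Aurkb, Tpx2 and Incenp. CHR letters were found on either strand in 5 of the 7 (Aurka, Birc5, Cdca8, Plk1 and Plk4) and in 27.6% of all 32841 windows. In the 250 bases before the start alone they were in 3 of the 7 (Birc5, Plk1 and Plk4) and in 25.2% of windows. CCAAT was found on either strand in 4 of the 7 (Aurka, Cdca8, Nek2 and Plk1) and in 37.4% of all windows. The E2F letters TTTCCCGC, TTTGGCGC, TTTCGCGC and TTTGCCGC, searched likewise, were in 0 of the 7 and in 2.27% of all windows. The window of Melk held none of the CHR, CCAAT and E2F letters. Such matches describe letters and show no binding, and 7 windows are few. A link between letters and the size of the changes was not tested.

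The 120 bases before the start are shown for 4 kinase genes that differ in their letters, with CCAAT and CHR letters in capitals. Aurka lies at chr2:172370571-172370690 (minus strand), Plk1 at chr7:122159315-122159434 (plus strand), Nek2 at chr1:191821353-191821472 (plus strand) and Plk4 at chr3:40799831-40799950 (plus strand). Starts here are those of RefSeq and differ from the GENCODE gene positions given above. The GENCODE gene of Nek2 begins at 191821444, inside this stretch, and the CCAAT letters of Nek2 lie past that point. Letters counted before or after a RefSeq start can thus lie on the other side of a GENCODE start.
Aurka: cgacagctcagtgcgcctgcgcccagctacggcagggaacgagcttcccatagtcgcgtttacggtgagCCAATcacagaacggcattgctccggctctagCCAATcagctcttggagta
Plk1: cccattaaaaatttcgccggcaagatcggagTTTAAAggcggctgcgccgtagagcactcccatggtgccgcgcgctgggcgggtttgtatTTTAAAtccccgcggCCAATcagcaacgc
Nek2: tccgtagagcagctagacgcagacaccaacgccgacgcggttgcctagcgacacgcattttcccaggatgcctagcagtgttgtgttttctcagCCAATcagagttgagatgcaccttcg
Plk4: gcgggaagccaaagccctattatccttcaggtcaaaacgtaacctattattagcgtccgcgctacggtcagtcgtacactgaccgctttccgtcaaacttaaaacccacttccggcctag
Aurka, Plk1 and Nek2 hold CCAAT in this stretch, Plk1 also holds CHR letters, and Plk4 holds neither. In Plk4 the CHR letters begin 135 bases before the start.

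The form TTTGAA was found in 17.9% of all windows, among them those of Aurka, Plk1 and Cdca8. In Aurka it stood close behind the RefSeq start, at base 33, and in Plk1 at base 31, counted from 1 at that start. The 30 bases around it lie at chr2:172370521-172370550 (minus strand) and chr7:122159453-122159482 (plus strand).
Aurka: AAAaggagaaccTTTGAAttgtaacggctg
Plk1: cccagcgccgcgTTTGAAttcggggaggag
In Aurka the opening AAA is the end of a TTTAAA match.

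The genes fall into a rough order by how much of the negative gate level the high gate kept. Over 12 tumours the median kept was 1.79% for Aurkb, 1.96% for Plk1, 2.36% for Nek2, 2.41% for Melk and 2.78% for Birc5. It was 3.29% for Aurka, 3.52% for Tpx2 and 4.05% for Cdca8. Incenp kept 7.57% and Plk4 9.21%. Neighbours in this order overlap widely, since Aurkb ranged from 0.714% to 3.79% and Plk1 from 0.883% to 3.13%, but Plk4 (6.06% to 14.5%) did not overlap with Plk1. Incenp ranged from 4.41% to 13.1% and overlapped with Cdca8, whose range was 2.49% to 5.87%, but only across lines. Within lines the lowest Incenp value was 4.41% in 4T07, 11.1% in D2A1 and 6.95% in EMT6. The highest Cdca8 value was 3.205%, 5.87% and 4.835% in the same order.

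**Figure D4:**
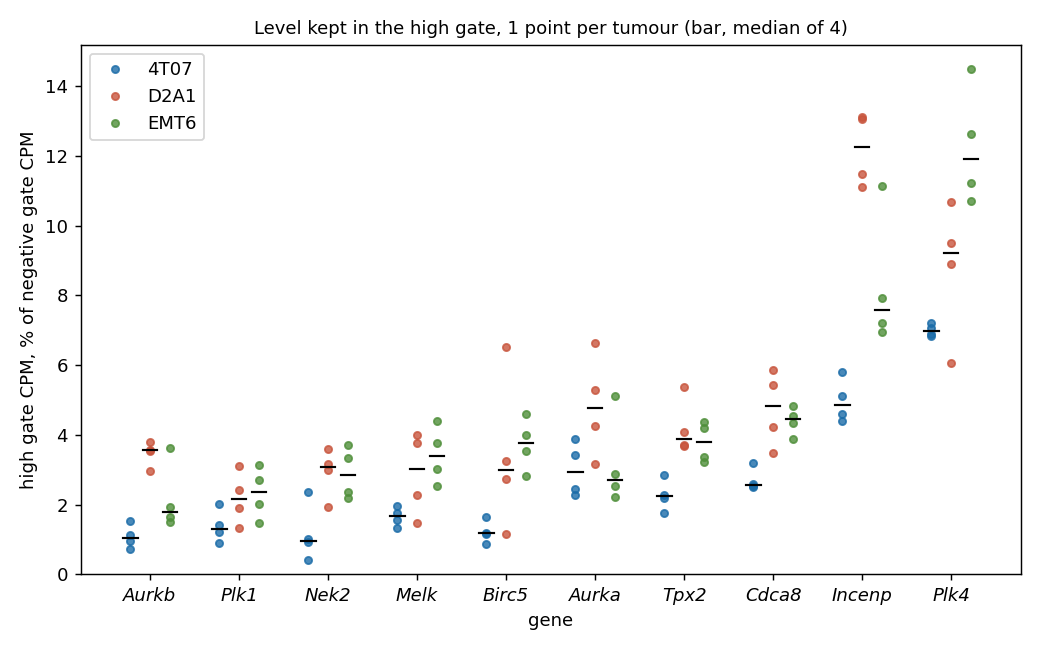
High gate CPM as a percent of the negative gate CPM of the same tumour (vertical axis, percent; horizontal axis, gene, ordered by the median of 12 tumours; points, tumours; black bars, median of 4 tumours). The points of the first 8 genes lie at or under 6.63%, and Incenp and Plk4 reach 13.1% and 14.5%.

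The average change over the lines, from a joint fit of the 24 libraries, was called lower for all 10 genes, as for 24% of the 13579 genes tested, while 28.3% were called higher. After Plk1 it was -5.62 ± 0.11 for Aurkb, -5.55 ± 0.15 for Nek2, -5.37 ± 0.14 for Birc5 and -5.25 ± 0.10 for Melk. Tpx2 had -4.90 ± 0.08, Aurka -4.82 ± 0.11 and Cdca8 -4.69 ± 0.07. Incenp with -3.63 ± 0.07 and Plk4 with -3.43 ± 0.07 again changed least (adjusted p at most 1.98e-15 for the 10 genes).

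The lines differed in how far most of the 10 genes fell, and the estimate was lowest in 4T07 for each. For Aurka that order is not resolved, as 4T07 minus EMT6 was -0.05 ± 0.28 (adjusted p = 0.944) and 0.22 without EMT6 tumour 0. A difference between the 3 lines was called for 8 of the 10 genes, all but Aurka (adjusted p = 0.109) and Plk1 (adjusted p = 0.0969), and for 24.6% of all genes tested. The spread of the 3 line changes was widest for Aurkb, at 1.70 on the log2 scale (adjusted p = 0.00174), followed by Birc5 at 1.62 (adjusted p = 0.00469), Nek2 at 1.35 (adjusted p = 0.0134) and Incenp at 1.32 (adjusted p = 8.39e-05). It was 1.06 for Melk, 0.92 for Tpx2, 0.80 for Cdca8 and 0.78 for Plk4 (adjusted p = 0.00950, 0.00213, 0.00430 and 0.00481). When all libraries were thinned to the shallowest one, Incenp alone of these 8 was still called (adjusted p = 0.00928), and the other 7 had adjusted p from 0.131 to 0.360. Their spreads were then 1.46 for Aurkb, 1.69 for Birc5, 1.21 for Nek2 and 1.82 for Melk. For Tpx2, Cdca8 and Plk4 they were 0.74, 0.95 and 0.80. Thinning lowers the counts behind these values, and why the calls were lost was not tested. Aurka was called without EMT6 tumour 0 and without D2A1 tumour 4, and Plk1 without 4T07 tumour 4 and without D2A1 tumour 4.

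In the pairs of lines, 4T07 fell further than D2A1 for 7 genes (Aurkb, Nek2, Tpx2, Incenp, Birc5, Cdca8 and Melk), a call made in that direction for 13.1% of all genes tested and in the other for 10.2%. The differences were -1.70 ± 0.29 for Aurkb, -1.35 ± 0.35 for Nek2, -1.32 ± 0.16 for Incenp and -1.31 ± 0.35 for Birc5 on the log2 scale. Tpx2 differed by -0.92 ± 0.17, Melk by -0.89 ± 0.26 and Cdca8 by -0.80 ± 0.17, and the call of Melk was lost without 4T07 tumour 1, D2A1 tumour 1 or D2A1 tumour 2. Without the shallow D2A1 tumours 1, 2 and 3 the Birc5 difference was 0.03 (adjusted p = 1). Of the 7 genes Incenp alone was called in that fit, and also after thinning to the shallowest library. Without the 3 tumours the differences of the others were -1.48 for Aurkb, -0.81 for Nek2, -0.75 for Tpx2, -0.68 for Cdca8 and -0.51 for Melk. Without them D2A1 is a single tumour, assumed to vary like the others.

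Against EMT6, 4T07 fell further for 8 genes (Aurkb, Plk4, Nek2, Tpx2, Incenp, Birc5, Cdca8 and Melk), beside 7.47% of all genes tested (7.58% in the other direction). Birc5 differed most, by -1.62 ± 0.33, then Nek2 by -1.34 ± 0.38, Melk by -1.06 ± 0.26 and Aurkb by -0.95 ± 0.28. Plk4 differed by -0.78 ± 0.15, Tpx2 by -0.73 ± 0.17, Incenp by -0.70 ± 0.15 and Cdca8 by -0.69 ± 0.16. After thinning to the shallowest library none of the 8 was called, with adjusted p from 0.0876 (Incenp) to 0.782 (Cdca8). The calls of Aurkb and Nek2 were each lost in 4 of 12 fits that left out a tumour: of 4T07 tumour 1, 4T07 tumour 2, EMT6 tumour 0 and EMT6 tumour 4 for Aurkb, and of 4T07 tumour 1, 4T07 tumour 3, EMT6 tumour 1 and EMT6 tumour 2 for Nek2. Without the 3 shallow D2A1 tumours they had adjusted p of 0.0596 and 0.0504. D2A1 and EMT6 differed for Incenp, by 0.63 ± 0.16 (adjusted p = 0.0356), in a direction called for 1.87% of all genes tested (1.58% in the other). That call was lost without each of the 4 D2A1 tumours and without EMT6 tumours 1, 2 and 4, with adjusted p up to 0.123. It was also lost in 6 of 8 other fits, with adjusted p from 0.0574 to 0.571: with DESeq2 size factors, total count scaling, no replicate block, the DESeq2 test, thinning, and without the 3 shallow D2A1 tumours. By level, Incenp had 10.4 ± 2.25, 12.8 ± 0.17 and 13.1 ± 2.42 CPM in the high gate of 4T07, D2A1 and EMT6 and 207 ± 19.8, 106 ± 9.11 and 159 ± 7.73 CPM in the negative gate (SD, n = 4). Macrophage markers, depth and run also differ between 4T07 and the other lines, and their part in these differences was not tested.

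Per kilobase, Tpx2 had the highest mean of the 10 genes in the negative gate of each line, at 97.4 ± 12.6 CPM per kilobase in 4T07, 108 ± 13.5 in D2A1 and 51.4 ± 5.34 in EMT6 (SD, n = 4), and in EMT6 its libraries overlapped with those of Plk1 (45.0 ± 3.01). Plk1 came next by its mean in each line, at 61.0 ± 6.77 in 4T07 and 57.1 ± 5.71 in D2A1. In those 2 lines its libraries overlapped with those of Aurka, so its place is not resolved there. Aurora A was ahead of Aurora B, with 59.5 ± 6.44 against 40.8 ± 3.31 CPM per kilobase in 4T07, 41.9 ± 5.06 against 13.7 ± 0.89 in D2A1 and 27.9 ± 3.54 against 19.6 ± 1.74 in EMT6, with no overlap. In the high gate the order changed. Tpx2 led in D2A1 (4.52 ± 0.92) and Incenp in EMT6 (3.03 ± 0.56), with no overlap with the next gene. In 4T07 Incenp (2.40 ± 0.52) and Tpx2 (2.20 ± 0.50) overlapped at the top. Plk4 moved from place 9, 7 and 9 in the negative gate of 4T07, D2A1 and EMT6 to place 4, 4 and 3. Aurkb was in place 9 in the high gate of all 3 lines, at 0.435 ± 0.11, 0.474 ± 0.05 and 0.416 ± 0.15 CPM per kilobase.

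Across the 24 libraries, with each line centred on its own mean, the 10 genes followed each other closely. The correlation of a gene with the mean of the other 9 was between 0.990 (Nek2) and 0.998 (Tpx2), a value set mostly by the gate. Among 10764 other genes the most alike were Racgap1, a partner of Aurora B at the central spindle (r = 0.9979), the cyclin B gene Ccnb1 (0.9977), the checkpoint ATPase gene Trip13 (0.9974), and Cdk1 and the kinetochore gene Cenpf (both 0.9971). Under total count scaling 4 of these 5 were again among the 5 most alike. The libraries share their gates and tumours, so these correlations are descriptions with no test.

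Among relatives of the 6 kinases and of survivin more genes rose than fell, by far smaller steps. Of the Aurora and Polo relatives Plk2 and Plk3 passed the filter, and Aurkc and Plk5 did not. Plk2, a stress-responsive Polo kinase, rose by 0.60 ± 0.09 in 4T07 and 0.32 ± 0.06 in EMT6 and was at 0.05 ± 0.12 in D2A1. Plk3, also stress responsive, rose by 0.45 ± 0.12 in D2A1 and 0.42 ± 0.08 in EMT6 and was at -0.07 ± 0.09 in 4T07. In 4T07, D2A1 and EMT6, 22.1%, 14.9% and 24.1% of all genes tested were called higher.

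Of 10 NEK relatives 7 were tested, of which 3, 1 and 3 rose and 0 fell in 4T07, D2A1 and EMT6. Nek3 rose in each line, by 0.60 ± 0.19, 0.87 ± 0.24 and 0.67 ± 0.13, and Nek1, a kinase of cilia and DNA repair, rose by 0.67 ± 0.17 in 4T07 and 0.24 ± 0.06 in EMT6. Nek9, which acts upstream of Nek6 and Nek7 in mitosis, rose by 0.27 ± 0.05 in EMT6 and was at 0.09 and 0.10 in 4T07 and D2A1. Among relatives of Melk in the AMPK family 4 of 13 rose and 1 fell in 4T07, 3 of 13 rose and 2 fell in D2A1, and 5 of 12 rose and 1 fell in EMT6. The salt-inducible kinase gene Sik1 rose by 0.58 ± 0.09, 0.66 ± 0.12 and 0.94 ± 0.17, Sik2 by 0.49 ± 0.07 in 4T07 and 0.30 ± 0.07 in EMT6, and Snrk by 0.56 ± 0.15 in D2A1 and 0.21 ± 0.07 in EMT6. Hunk fell in 4T07 (-1.16 ± 0.25), and Nuak2 fell in D2A1 (-0.65 ± 0.19) and EMT6 (-0.22 ± 0.08). Nuak1 fell in D2A1 (-0.65 ± 0.12) and rose in EMT6 (0.57 ± 0.04). Of 4 relatives of Birc5 tested, Birc2 rose in 4T07 (0.25 ± 0.08, adjusted p = 0.0474), and Birc3 and Xiap were called in no line. Under total count scaling in 4T07, which moved the median of all genes there to -0.14 and the share of higher calls from 48.3% to 33.2%, the calls of Nek3 (0.47, adjusted p = 0.0945) and Birc2 (0.11, adjusted p = 0.309) were lost and the sign of Nek9 turned (-0.04). The median of the NEK relatives then was -0.04 (2 rose and 1 fell) and that of the Birc5 relatives -0.01, and 3 AMPK relatives rose and 2 fell.

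Other kinases and cyclins of mitosis fell with the 10 genes. All 14 on the list, which also holds Cdc25 phosphatase genes, were lower in each line, with medians of -5.94, -4.62 and -4.37. Of all genes tested, 23.6%, 14.7% and 25.1% were called lower in 4T07, D2A1 and EMT6. The spindle checkpoint kinase gene Bub1 changed by -6.15 ± 0.15, -5.03 ± 0.18 and -4.15 ± 0.07 in 4T07, D2A1 and EMT6, and Bub1b, its relative BubR1, by -5.94 ± 0.18, -5.39 ± 0.15 and -4.80 ± 0.07. Cdk1, the kinase that drives entry into mitosis, changed less, by -3.62 ± 0.10, -2.80 ± 0.13 and -3.13 ± 0.06.

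Of 26 genes of activators, docking partners and substrates of these kinases, 25, 24 and 24 were lower and 0 were higher in 4T07, D2A1 and EMT6, with medians of -4.13, -2.90 and -3.31. The shares of all genes called lower were 23.6%, 14.7% and 25.1%. The 3 with the smallest p of the average all belong to the central spindle, where Aurora B and Plk1 act late in mitosis. Kif23, a kinesin of the centralspindlin complex, changed by -5.59 ± 0.10, -4.89 ± 0.14 and -5.06 ± 0.09, and its partner Racgap1 by -5.06 ± 0.12, -3.73 ± 0.12 and -3.95 ± 0.07. Ect2, the exchange factor that starts the cleavage furrow, changed by -4.48 ± 0.15, -4.59 ± 0.14 and -3.82 ± 0.06.

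**Figure D5:**
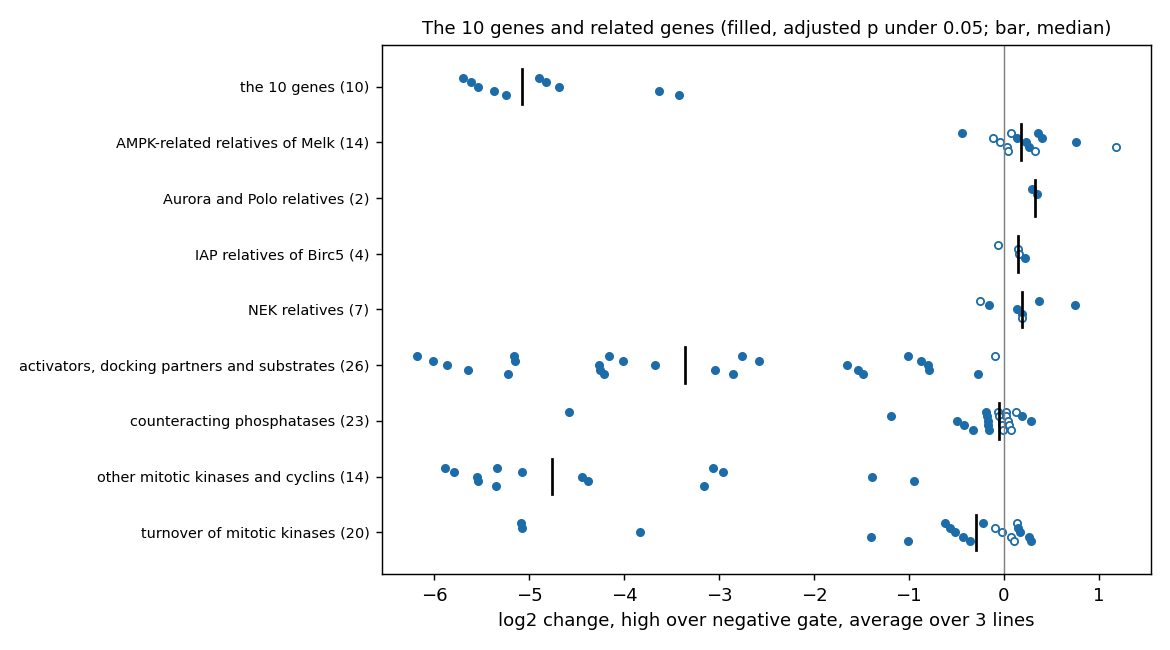
Average change over the lines of the 10 genes and of the tested genes of each related list (horizontal axis, log2 of p27K high over p27K negative; vertical axis, list with its number of genes; filled points, adjusted p under 0.05; black bars, median). The 10 genes and the other mitotic kinases and cyclins lie to the left of 0 with medians of -5.07 and -4.76, and the relatives of the Aurora, Polo, NEK, Birc5 and AMPK families have medians between 0.15 and 0.33. Within single lines the Birc5 and AMPK medians are below 0 in D2A1 (-0.01 and -0.03), and under total count scaling the NEK and Birc5 medians are below 0 in 4T07 too. Genes that failed the filter in some line also have an average. Hunk, tested only in 4T07, where it fell (-1.16), is plotted at 1.18 ± 0.79 (not called). Prkaa2, at -0.04 in D2A1 and -0.59 in EMT6 and called in neither, is plotted at 0.33.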

How the data were processed

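The deposited files hold raw gene counts, 1 table per line, which GENEWIZ made per the labels' protocols. The submitters' processing notes name the build mm10 and DESeq2. Aligner, counter, kit and strand: not given in the sources used here, so genes that overlap or have antisense partners may share reads. All 24 columns of counts were used. Blank names (at most 0.0109% of a library) and a totals entry were left out.

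Within a line, genes were tested by edgeR 4.0.16 (quasi-likelihood, R 4.3.3) with TMM scaling, its default filter (minimum count 10), the tumour as a block and Benjamini-Hochberg adjustment over all genes. The standard error is the change over the square root of F. A joint fit with 12 tumour blocks gave the average and the difference between lines. Pairs of genes used log2 CPM with a prior count of 2. With the tumour as a block, p-values rest on how the change within a tumour varies from tumour to tumour, and errors do not cover PCR copies. The fit was tested on simulated data.

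In 4T07 and D2A1 the labels pair the gates. EMT6 columns carry the numbers 0, 1, 2 and 4, not those of the titles; these numbers were used as pairs, since both gates of a number shared their deviations (r of 0.615, 0.574, 0.813 and 0.648 over 5000 genes; 0.195 to 0.801 in 4T07 and 0.0834 to 0.294 in D2A1).

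The genes and lists were chosen with earlier results of these data known. Named were the 10 genes, Cdkn1b and Mki67, the 3 genes of each related list with the smallest p of the average, list genes higher in at least 2 lines, and the 5 most alike genes. Added to these were some cell type markers and the AMPK relatives called lower in a line. Coordinates and exon lengths came from GENCODE vM21 (GRCm38, also called mm10), promoters from RefSeq (GRCm38.p6). Alternatives were DESeq2 1.42.0 and its size factors, total count scaling, other filters, no block, thinning and leaving out tumours. The fit without the shallow D2A1 tumours was added after seeing the data. One promoter site is not reported here.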

Additional observations from a re-analysis of the deposited data

Results flagged for a closer look

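Among 60 groups of 4 libraries, 2 held a library far from the others by Dixon's test, which chance does in about 1 of 20 groups. Incenp was at 16.7 CPM in the high gate of EMT6 tumour 0 and at 11.7 to 12.4 CPM in the other high libraries of EMT6. Plk4 was at 86.4 CPM in the negative gate of EMT6 tumour 0 and at 107 to 111 CPM in the other negative libraries. Both values come from the same tumour.

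A difference of the gate change between the lines was called for 8 of the 10 genes, as for 24.6% of the 13579 genes tested. After thinning to the shallowest library only 1 of them, Incenp, was still called. The largest minus the smallest line change was 1.70 for Aurkb, 1.62 for Birc5, 1.35 for Nek2, 1.32 for Incenp, 1.06 for Melk, 0.92 for Tpx2, 0.80 for Cdca8 and 0.78 for Plk4, all on the log2 scale, and in each case 4T07 fell furthest.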

How the results depend on the processing

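The falls of the 10 genes kept their direction and passed the test in all 330 values recomputed within lines and all 200 for the average. The spread over lines kept its side of the threshold in 187 of 200 values, 9 were lost and 4 gained. Of 600 differences between pairs of lines 543 kept it, 45 were lost, 11 gained and 1 that had been called turned its sign, which was Birc5 in 4T07 minus D2A1 at 0.0258 without the 3 shallow D2A1 tumours. Differences that were not called also turned sign in some fits: Aurka in 4T07 minus EMT6 (up to 0.22), Plk1 in 4T07 minus D2A1 (up to 0.01), and Aurkb (down to -0.57), Plk1, Nek2, Birc5 (up to 0.09), Cdca8 and Melk in D2A1 minus EMT6. Without the replicate block 2008 genes in EMT6 (3215 with it) were higher, and 1609 genes (3334) differed between lines; all 10 genes were called in each line either way. Thinning to the shallowest library left 2132 genes lower in the average, 1406 differing between lines and 1 of the 10 genes among them. Genes higher numbered 1640 to 3894 in 4T07 without a tumour (lowest without tumour 1) and 1181 to 2443 in D2A1 (1181, 1269 and 1188 without tumours 1, 2 and 4). The mean of Aurka minus Tpx2 was -0.0251 without 4T07 and 0.305 without EMT6, and that of Aurkb minus Birc5 was -0.465 without D2A1 and 0.0877 without EMT6. The causes were not tested. In the 250 bases before the RefSeq start alone, CHR, CCAAT and E2F letters were in 3, 4 and 0 of the 7 genes and in 25.2%, 33.9% and 1.86% of windows. Depth limits D2A1 most, where negative libraries gave as few as 51 counts for Aurkb.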

Other observations

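Phosphatases remove the marks set by mitotic kinases. Of 23 genes on the list 3 rose and 4 fell in 4T07, 1 rose and 5 fell in D2A1, and 0 rose and 13 fell in EMT6, with medians of -0.02, -0.23 and -0.15. Over all genes tested 22.1%, 14.9% and 24.1% were called higher and 23.6%, 14.7% and 25.1% lower in the same order. Under total count scaling 2 rose and 8 fell in 4T07 and 0 rose and 5 fell in D2A1. Cdca2, which encodes Repo-Man, the protein that brings phosphatase 1 to chromatin, changed most, with log2 changes of -4.82 ± 0.12, -4.03 ± 0.18 and -4.97 ± 0.18. Ppp2r5d, a regulatory subunit of phosphatase 2A, changed by -1.14 ± 0.09, -1.41 ± 0.12 and -1.11 ± 0.08, and Ppp1r7 by -0.26 ± 0.07, -0.60 ± 0.13 and -0.71 ± 0.06.

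In the machinery that degrades mitotic kinases, 5 of 20 genes rose and 10 fell in 4T07, 1 rose and 9 fell in D2A1, and 0 rose and 12 fell in EMT6, with medians of -0.24, -0.38 and -0.30, beside the same shares of all genes. Under total count scaling 3 rose and 10 fell in 4T07. The falls of Cdc20, the mitotic activator of the anaphase-promoting complex, were of the size seen for the kinases (-5.40 ± 0.18, -5.32 ± 0.27 and -4.65 ± 0.08). Its ubiquitin-conjugating enzyme gene Ube2c changed by -6.36 ± 0.23, -4.71 ± 0.29 and -4.26 ± 0.08, and its inhibitor gene Fbxo5 by -4.39 ± 0.12, -3.23 ± 0.20 and -3.98 ± 0.13.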
